A study of Mus musculus with 6 samples.

Results

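The common gamma chain cytokine receptors are the receptors through which T cells sense interleukins 2, 4, 7, 9, 15 and 21. The receptor chain genes were Il2ra, Il2rb, Il2rg, Il4ra, Il7r, Il9r, Il15ra and Il21r, found as probe sets whose platform symbol was exactly 1 of these 8 names. Each of 7 genes had 1 such probe set, out of 22180 genes measured, and Il2rg, which encodes the gamma chain itself, had none and was not analysed here. In the Tc17 cells set against Tc1 cells, Il15ra was 1.79-fold lower, Il4ra was 1.40-fold higher without passing the test, and the other 5 genes differed by less than 0.2 on the log2 scale.

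Each receptor of the family pairs the shared gamma chain with a second signalling chain, and the pair brings the kinases JAK1 and JAK3 together. The receptors of interleukins 2 and 15 share this second chain, Il2rb, and add an alpha chain each, Il2ra or Il15ra. The kinases JAK1 and JAK3 phosphorylate STAT proteins, mainly STAT5 for interleukins 2, 7, 9 and 15, STAT6 for interleukin 4 and STAT3 for interleukin 21. In CD8+ T cells the family is known for expansion after activation (interleukin 2), survival of naive and memory cells (interleukins 7 and 15) and support of effector differentiation (interleukin 21).

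The cells were naive CD8+ T cells sorted from mouse spleen and activated for 4 days with antibodies to CD3 (1 µg/ml) and CD28 (3 µg/ml). Tc17 cells, the interleukin-17-producing state, had IL-6 and TGF-beta for 3 of these days, and Tc1 cells, the interferon-gamma-producing state, had IL-12. Both groups then spent 1 day with IL-2, so each was measured after exposure to a ligand of this family. No strain, age or genotype of the mice was given in the sources used here. Each group had 2 biological samples, numbered 1 and 2, and a technical array of the sample numbered 2. The labels do not say whether samples came from separate animals, so p-values measure the spread between these samples only.

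The 6 arrays gave RMA log2 intensities, and their medians lay between 6.04 and 6.09. The genes that mark CD8 T cells were bright in both groups, with a mean over 6 markers of 12.36 to 12.44 on the Tc17 arrays and 12.32 to 12.40 on the Tc1 arrays. Among 5 macrophage and monocyte markers, the lysozyme gene Lyz2 was higher in Tc17 (9.18, 8.74 and 8.79, against 5.44, 5.21 and 5.68 in Tc1, limma adjusted p = 0.00594). The mean over these 5 markers was 6.41 to 6.63 in Tc17 and 5.57 to 5.74 in Tc1. The other 4 had differences, Tc17 minus Tc1, of 0.087 to 0.38 and none was called. In limma's test 3 of these 4 had an unadjusted p under 0.05, against 15.9% of all genes. The mean over these 4 was at least 5.81 on each Tc17 array and at most 5.75 on each Tc1 array. These means lay below every array median, as did Adgre1 and Cd14 on all 6 arrays, and the arrays of Itgam overlapped. Csf1r lay above every array median, with its Tc17 arrays above its Tc1 arrays. A higher macrophage signal in Tc17 beyond Lyz2 was therefore neither shown nor excluded. The mean over 4 B cell markers was 6.69 to 6.79 in Tc17 and 6.61 to 6.64 in Tc1. Among them Cd79b was bright, at 10.39, 10.22 and 10.27 in Tc17 and 9.91, 9.68 and 9.71 in Tc1, and missed the threshold (limma adjusted p = 0.162). Of the 4 differences, 3 were above 0 and 1 below. The 4 dendritic cell markers and the 2 NK cell markers lay below every array median. The means over 3 CD4 T cell markers were 6.50 to 6.61 in Tc17 and 6.61 to 6.75 in Tc1. The part of these markers in the results on receptor chains was not tested.

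The comparison asked which receptor chains differed between Tc17 and Tc1 cells. Of the 7 chains, 1 was lower and 0 were higher in limma's moderated test on 2 against 2 samples at an adjusted p of 0.05. Over all genes the same test called 1.58% in either direction, 0.591% lower and 0.992% higher in Tc17. A single call among 7 genes is too few to set the family apart from that background. At an unadjusted p under 0.05 there were 2 of 7, Il15ra and Il4ra, where 15.9% of all genes had such a p. The differences ran from −0.84 to 0.48 with a median of −0.0055, and their median size of 0.092 was close to the 0.094 of all genes.

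Il15ra encodes the alpha chain that holds interleukin 15 and presents it to the beta and gamma chains of the same or a neighbouring cell. It had log2 intensities of 7.52 in Tc17 sample 1 and, for Tc17 sample 2, 7.52 on its first and 7.50 on its technical array, against 8.41, 8.36 and 8.25 on the matching Tc1 arrays. The groups did not overlap, and the gap between them was several times wider than the spread within either group. Il15ra averaged 7.52 ± 0.0097 in Tc17 and 8.36 ± 0.075 in Tc1 (log2, SD, n = 2), a difference of −0.84 ± 0.079 (SE, limma adjusted p = 0.0307). The 95% interval of this difference, not adjusted for the number of genes, ran from −1.05 to −0.63. A difference of at least this size was found for 2.87% of all genes. The arrays measure the culture as a whole, in which fewer cells with the transcript and less transcript per cell cannot be told apart.

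The call on Il15ra needed all 4 samples. Leaving out any 1 of them kept the difference between −0.89 and −0.79 but raised the limma adjusted p to between 0.116 and 0.184. Without moderation of the variances the adjusted p was 0.386, and under the other 11 settings Il15ra passed, as the plot of adjusted p by setting shows.

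**Figure D1:**
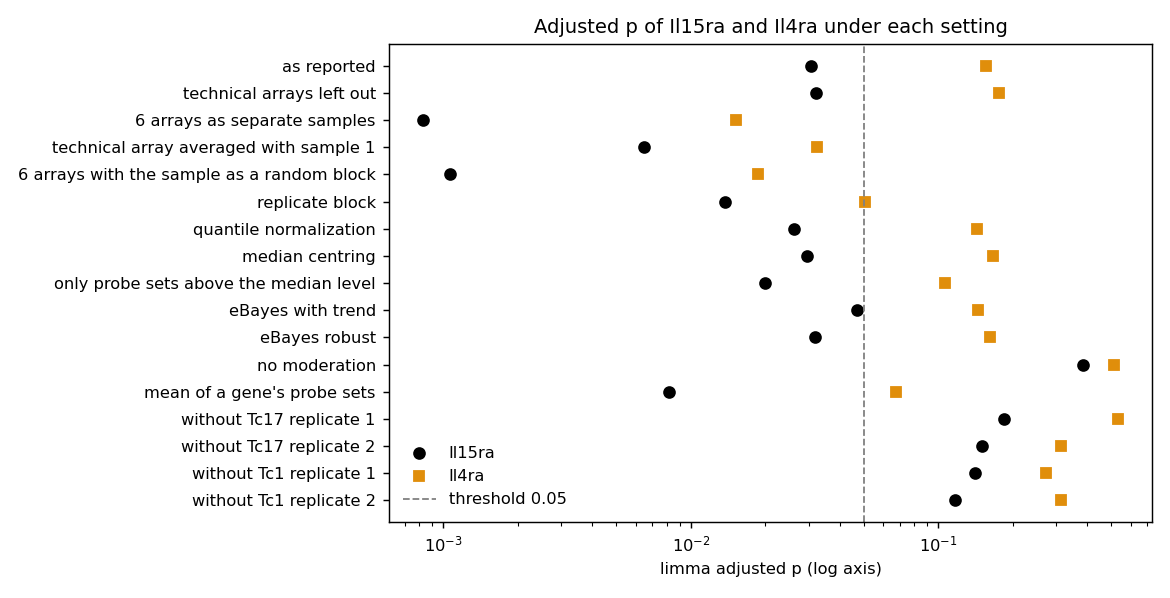
Adjusted p of Il15ra (circles) and Il4ra (squares) on a log axis under the reported setting and each alternative, with the threshold of 0.05 as a dashed line. Il15ra lies left of the line except without moderation and when a sample is left out, and Il4ra lies left of it under 3 readings of the technical array.

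Il2ra and Il2rb, the alpha and beta chains of the interleukin 2 receptor, had 95% intervals that spanned 0. Il2ra, the CD25 chain that raises the affinity for interleukin 2, measured 13.28, 13.28 and 13.32 on the Tc17 arrays and 13.30, 13.23 and 13.34 on the Tc1 arrays. The arrays of the groups interleaved. The difference was −0.0055 (limma adjusted p = 0.987), with a 95% interval of −0.19 to 0.18, so that a change of more than 1.14-fold lay outside it. These values stand near the top of the scale, where the highest intensity on any array was 13.96, and how far intensities there still follow transcript amounts was not tested. Il2rb, the CD122 chain shared by the receptors of interleukins 2 and 15, measured 12.94, 12.87 and 12.85 in Tc17 and 13.00, 12.96 and 13.02 in Tc1. All Tc17 arrays lay below all Tc1 arrays, by a narrow margin, and the difference of −0.092 missed the threshold (limma adjusted p = 0.699, 95% interval −0.29 to 0.11). Arrays without overlap were found for 29.7% of all genes, and for 3 of the 7 receptor chains.

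**Figure D2:**
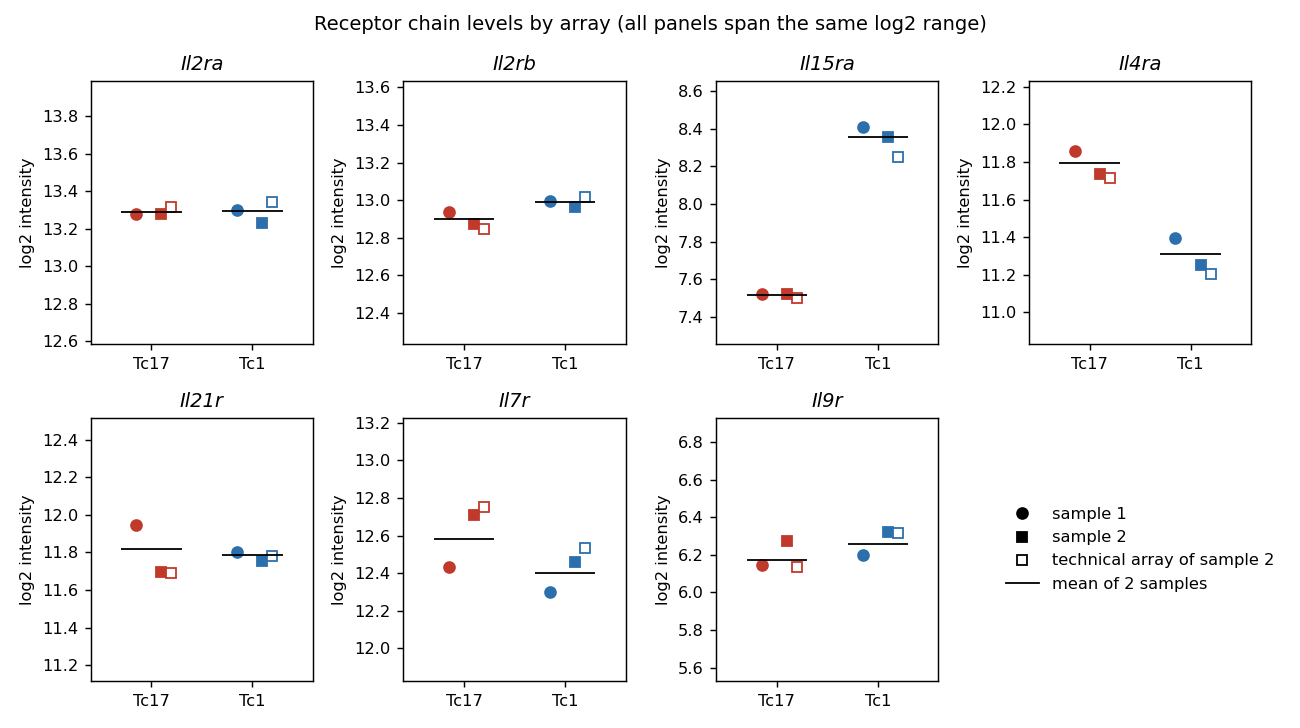
Log2 intensity of each receptor chain gene in Tc17 (left) and Tc1 (right), with sample 1 as a circle, sample 2 as a filled square, its technical array as an open square and the mean of the 2 samples as a line. The Il15ra arrays lie near 7.5 in Tc17 and above 8.2 in Tc1, and the Il4ra arrays above 11.7 in Tc17 and below 11.4 in Tc1.

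Il4ra encodes the chain that binds interleukin 4 and, with another partner, interleukin 13. It measured 11.86, 11.74 and 11.72 on the Tc17 arrays, against 11.39, 11.25 and 11.20 on the Tc1 arrays. The groups did not overlap, and in each of them sample 1 was brighter than sample 2. Il4ra averaged 11.79 ± 0.092 in Tc17 and 11.31 ± 0.12 in Tc1 (log2, SD, n = 2). The difference of 0.48 ± 0.099 (SE) missed the threshold (limma adjusted p = 0.156), and its 95% interval ran from 0.22 to 0.74. It passed when the 6 arrays were read as separate samples (adjusted p = 0.0153), with the sample as a random block (adjusted p = 0.0186) and with the technical array averaged into sample 1 (adjusted p = 0.0323). Reading the arrays separately counts 1 biological sample as 2. The random block keeps the 6 arrays too, and called 1661 genes against 1830 with separate arrays. Averaging the technical array, labelled as sample 2, into sample 1 mixes the 2 biological samples of a group. It called 1240 genes against 351 as reported. None of these readings adds a biological sample.

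Il21r, the receptor chain for interleukin 21, measured 11.94, 11.70 and 11.69 in Tc17, against 11.80, 11.75 and 11.78 in Tc1. Tc17 sample 1 was the brightest and the other arrays of both groups lay close together. The difference of 0.033 missed the threshold (limma adjusted p = 0.938), with a 95% interval of −0.26 to 0.32. Il7r, the CD127 chain that is known to mark long-lived memory precursors, measured 12.44, 12.71 and 12.75 in Tc17 and 12.30, 12.46 and 12.53 in Tc1. The groups overlapped, and samples 1 and 2 of Tc17 stood 0.30 apart, more than the 0.18 between the groups. That difference missed the threshold (limma adjusted p = 0.665), with a 95% interval of −0.17 to 0.54, the widest among the 7 receptor chains. It was 0.036 and 0.33 without Tc17 sample 2 and Tc17 sample 1, and 0.087 and 0.28 without Tc1 sample 1 and Tc1 sample 2.

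Il9r, the receptor chain for interleukin 9, was dim on every array. It measured 6.14, 6.27 and 6.13 on the Tc17 arrays and 6.20, 6.32 and 6.31 on the Tc1 arrays, each close to and above the median of its array. No array gave a detection call, so signal above background was not shown for Il9r. The difference of −0.084 missed the threshold (limma adjusted p = 0.758).

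Several family members lie side by side in the genome, in the order given by the RefSeq table of GRCm38.p6. On chromosome 2, Il2ra and Il15ra are separated by 2 long noncoding RNA genes with provisional names, neither of them measured. Il15ra was lower in Tc17 while the interval of Il2ra stayed between −0.19 and 0.18. The gene on the far side of Il15ra, Fbh1, which encodes a DNA helicase, had a difference of 0.090 (limma adjusted p = 0.717). On chromosome 7, Il4ra and Il21r are adjacent, with differences of 0.48 and 0.033, and the next gene, Gtf3c1, a subunit gene of an RNA polymerase III factor, had a difference of −0.073 (limma adjusted p = 0.812). The 95% intervals of Il2ra and Il15ra did not overlap, while those of Il4ra and Il21r did.

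RefSeq promoters of GRCm38.p6 were read for 7 of the 8 family genes (not Il2rb), with 2 start sites for Il15ra. Shown are the 250 bases before each start of Il15ra, the gene that was lower in Tc17, of its neighbour Il2ra and of Il4ra. They run 5′ to 3′ along the gene, with motif matches in capitals.
Il15ra, first start (chr2:11705043-11705292, plus strand): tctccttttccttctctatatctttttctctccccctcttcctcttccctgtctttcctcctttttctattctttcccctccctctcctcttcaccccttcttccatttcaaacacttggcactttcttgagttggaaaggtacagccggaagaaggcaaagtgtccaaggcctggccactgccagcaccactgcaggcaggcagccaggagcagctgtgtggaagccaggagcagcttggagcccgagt
Il15ra, second start (chr2:11705462-11705711, plus strand): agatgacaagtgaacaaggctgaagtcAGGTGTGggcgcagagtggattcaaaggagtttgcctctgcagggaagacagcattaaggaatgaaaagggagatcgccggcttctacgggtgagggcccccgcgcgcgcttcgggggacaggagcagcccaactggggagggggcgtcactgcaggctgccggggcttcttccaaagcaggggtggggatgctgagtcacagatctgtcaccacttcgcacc
Il2ra (chr2:11642542-11642791, plus strand): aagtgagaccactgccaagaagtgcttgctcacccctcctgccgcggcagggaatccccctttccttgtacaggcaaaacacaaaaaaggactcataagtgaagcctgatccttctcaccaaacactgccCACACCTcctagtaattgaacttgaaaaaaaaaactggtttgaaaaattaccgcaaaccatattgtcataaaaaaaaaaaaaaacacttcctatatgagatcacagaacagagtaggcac
Il4ra (chr7:125552021-125552270, plus strand): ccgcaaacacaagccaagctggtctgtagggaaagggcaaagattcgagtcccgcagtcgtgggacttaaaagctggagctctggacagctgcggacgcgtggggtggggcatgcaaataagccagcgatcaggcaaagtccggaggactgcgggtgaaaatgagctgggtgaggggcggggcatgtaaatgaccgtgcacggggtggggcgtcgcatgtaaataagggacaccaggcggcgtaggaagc

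The motifs searched on both strands were a STAT site (TTCNNNGAA), a wider STAT site (TTCNNNNGAA), an interferon regulatory factor site (GAAANNGAAA) and a T-box core (AGGTGTG). Matches of different motifs could overlap, and none of these did. Among all 32851 promoters of the same length, 7.02%, 5.85%, 2.98% and 5.10% held them, in that order. The T-box letters were found before the second start of Il15ra, 223 bases upstream, and, as the reverse complement, before Il2ra, 120 bases upstream. The STAT letters were found before Il7r, and none of the 4 motifs was found before the first start of Il15ra or before Il4ra, Il9r, Il21r or Il2rg. A match of letters is not a bound site.

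The 6 cytokine genes of the family were read beside their receptors. Il21, whose product signals through Il21r, was higher in Tc17, at 10.54, 9.28 and 9.54 against 5.76, 5.56 and 5.81 in Tc1 (difference 4.25 ± 0.38 SE, limma adjusted p = 0.0274). It was the 1 cytokine gene of 6 that passed, and 3 of the 6, Il21, Il9 and Il2, had an unadjusted p under 0.05, against 15.9% of all genes. The Tc1 values of Il21 lay below every array median, so the size of its difference holds for intensities. With each of the 4 samples left out in turn, Il21 passed in 2 of the 4 fits. Il9 measured 8.77, 7.46 and 7.55 in Tc17 and 4.99, 4.97 and 4.93 in Tc1, and its difference of 3.17 missed the threshold (limma adjusted p = 0.0661). Its Tc1 values too lay below every array median, and of the 4 fits without a sample it passed in 2. Il2, Il4, Il7 and Il15 lay below every array median on all 6 arrays. Of these, Il2 had a difference of 0.36 (limma adjusted p = 0.315) and Il15 of −0.0094.

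**Figure D3:**
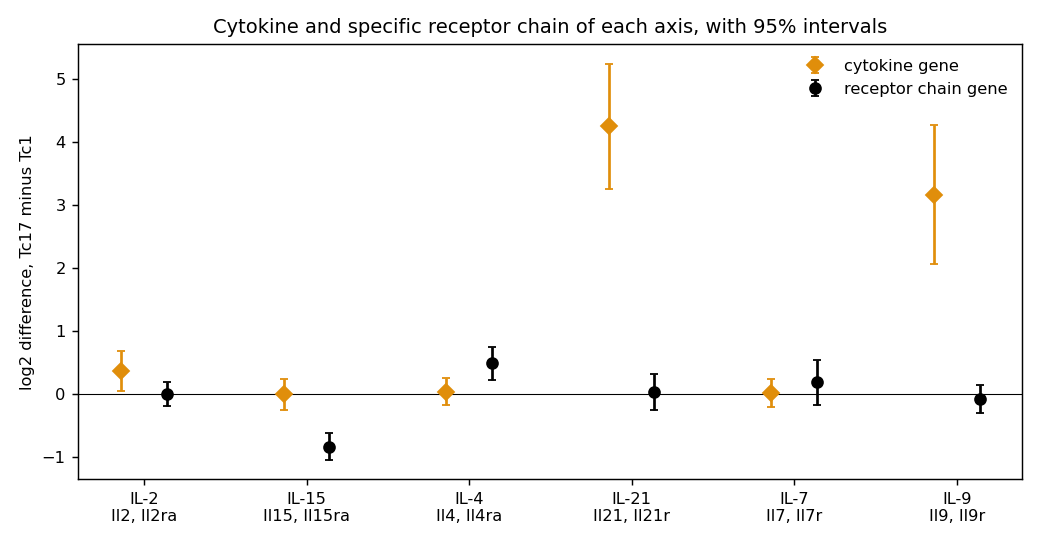
Log2 difference, Tc17 minus Tc1, of each cytokine gene (diamonds) and of its specific receptor chain (circles), with 95% intervals of the moderated fit. Il21 and Il9 stand at 4.25 and 3.17 while their receptor chains Il21r and Il9r stand at 0.033 and −0.084.

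Of 3 chains of related receptors, Il13ra1, Crlf2 and Il13ra2, none passed. In limma's test 1 of the 3 had an unadjusted p under 0.05, against 15.9% of all genes. Il13ra2 lay below every array median on all 6 arrays. Il13ra1, which pairs with Il4ra in the receptor for interleukin 13, measured 7.28, 6.74 and 6.99 in Tc17 and 5.79, 5.84 and 5.53 in Tc1. Its arrays did not overlap, and the difference of 1.33 stood just past the threshold (limma adjusted p = 0.0509). Crlf2, which pairs with Il7r in the receptor for thymic stromal lymphopoietin, had a difference of 0.19 (limma adjusted p = 0.39).

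Downstream of the receptors, 13 kinase, STAT and adaptor genes were measured. Of these, 1 was higher in Tc17 and none was lower, against 0.992% and 0.591% of all genes. In limma's test 6 of the 13 had an unadjusted p under 0.05, against 15.9% of all genes. Gab2, a docking protein that recruits PI3 kinase and the phosphatase SHP2, measured 10.54, 10.25 and 10.38 in Tc17 and 8.89, 8.91 and 8.90 in Tc1 (difference 1.53 ± 0.10 SE, limma adjusted p = 0.0141). Of the 4 fits without a sample, it passed in 1. Irs2, an adaptor recruited to the interleukin 4 receptor, had a difference of 1.45 and missed the threshold (limma adjusted p = 0.064). Stat5a and, named for their role after their values were seen, Stat5b, Stat3 and Stat6 had differences of 0.52, 0.45, 0.50 and 0.18, none of which passed (limma adjusted p = 0.16, 0.145, 0.0802 and 0.419). Jak1, named likewise, had a difference of −0.084, and Pik3cd, a catalytic subunit gene of PI3 kinase, had one of −0.39 without overlap of arrays that missed the threshold (limma adjusted p = 0.14). The list's median difference was 0.18, against −0.013 over all genes.

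Among 15 genes that respond to STAT5, none passed in limma's test and 7 had an unadjusted p under 0.05, against 15.9% of all genes. Their median difference was 0.29 and 12 of 15 differences were above 0, against 45.8% of all genes. The 12 include Bcl6, which STAT5 is known to lower, so the count does not measure the direction of a STAT5 response. Lta, which encodes lymphotoxin alpha, had a difference of 1.08 (limma adjusted p = 0.226). Bcl6, a repressor gene that STAT5 is known to lower, had a difference of 0.88 (limma adjusted p = 0.667), and its samples differed more within each group than between the groups. The feedback inhibitor genes Cish, Socs1, Socs2 and Socs3, named for their role after their values were seen, had differences of 0.65, 0.60, 0.63 and 0.67 without overlap of arrays, and none passed (limma adjusted p = 0.17, 0.145, 0.234 and 0.185). The 3 differences below 0 belonged to the kinase gene Pim1 (−0.66), the survival gene Bcl2l1 (−0.37) and the cyclin gene Ccnd3 (−0.16). Their arrays did not overlap either, and none passed (limma adjusted p = 0.164, 0.452 and 0.456). Arrays without overlap were found for 12 of the 15 genes and for 29.7% of all genes, and 2 of the 3 arrays per group are of the same sample.

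Of 12 measured transcription factor genes linked to the control of receptor chains, 2 were higher and 1 was lower in Tc17. The shares over all genes were 0.992% and 0.591%. In limma's test 6 of the 12 had an unadjusted p under 0.05, against 15.9% of all genes. Tbx21, which encodes T-bet, a factor known to drive Il2rb, was at 8.56, 8.67 and 8.63 in Tc17, against 11.42, 11.33 and 11.39 in Tc1 (difference −2.79 ± 0.080 SE, limma adjusted p = 0.00272). Il2rb, beside this, had a difference of −0.092. Its intensities stood near the top of the scale, as did those of Il2ra, where the tracking of transcript amounts was not tested. Foxp3, the factor of regulatory T cells, in which Il2ra is high, was at 10.73, 10.70 and 11.00 in Tc17 and 6.92, 6.88 and 6.64 in Tc1 (limma adjusted p = 0.00213), beside a difference of −0.0055 in Il2ra. Bach2, a repressor gene, had a difference of 1.41 (limma adjusted p = 0.0113), and its call was lost when any of the 4 samples was left out. Prdm1, which encodes Blimp-1, and Runx1 had differences of −2.38 and 1.19 and missed the threshold (limma adjusted p = 0.0621 and 0.234). Eomes, named after its values were seen, had a difference of −1.18 without overlap of arrays. It missed the threshold too (limma adjusted p = 0.0583).

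Set beside 18 cytokine receptor chains that do not use the gamma chain, the family spanned a narrower range. The 18 ran from −2.47 to 4.00 with a median size of 0.88. In limma's test 12 of the 18 had an unadjusted p under 0.05, against 15.9% of all genes. At an adjusted p of 0.05, 3 were higher and none lower in Tc17, against 0.992% and 0.591% of all genes. These were Ifngr2 (4.00), Il6ra (2.67) and Tgfbr1 (0.97), chains of the receptors for interferon-gamma, IL-6 and TGF-beta, with limma adjusted p of 0.00481, 0.035 and 0.0334. The calls on Il6ra and Tgfbr1 were lost when any of the 4 samples was left out. Il18r1 and Il18rap, the receptor chains for interleukin 18, had the lowest differences, −2.47 and −2.27, and missed the threshold (limma adjusted p = 0.0744 and 0.169). This is a description of lists of 7 and 18 genes, chosen with earlier results of these data known. A range can only widen as genes are added, and the 18 include receptor chains for IL-6, TGF-beta and IL-12, which were added to the cultures. The difference between the lists was not tested.

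**Figure D4:**
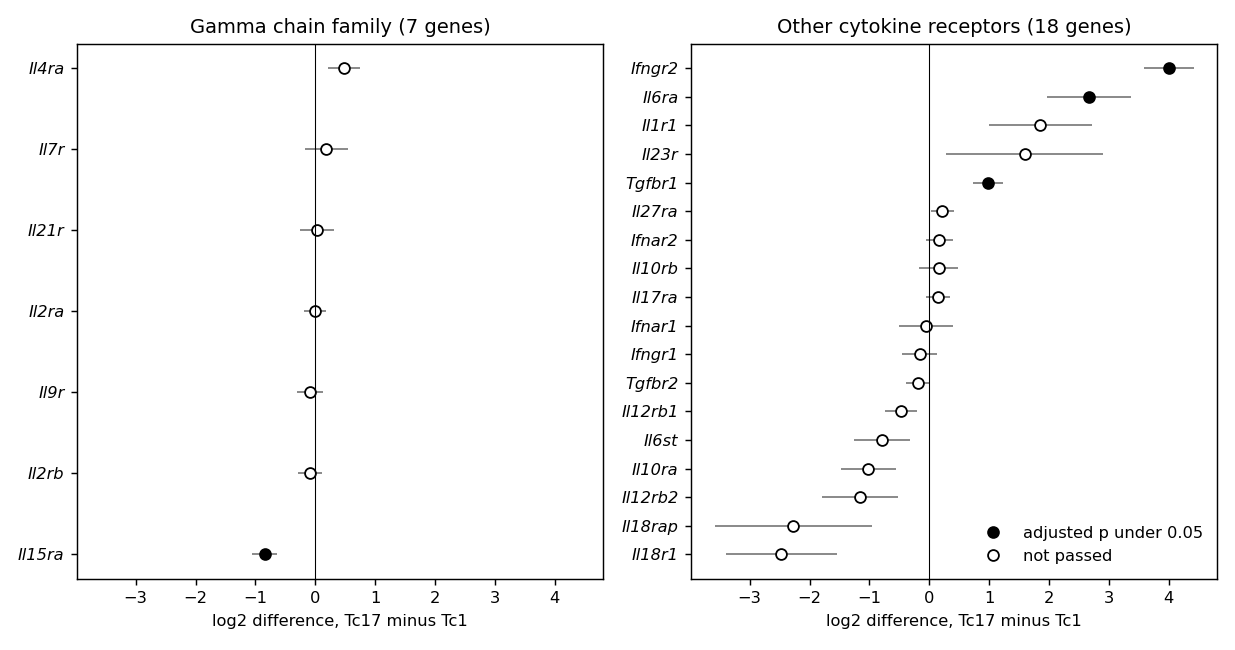
Log2 difference, Tc17 minus Tc1, of the 7 gamma chain family genes (left) and of 18 other cytokine receptor genes (right), with 95% intervals and filled points where the adjusted p was under 0.05. The family lies between −0.84 and 0.48 and the other receptors between −2.47 and 4.00.

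The genes whose profile over the 6 arrays lay nearest to that of Il15ra, by Euclidean distance of log2 values centred on each gene's mean, were Bmp7, Dusp7 and Chl1. Bmp7, which encodes a bone morphogenetic protein, had a distance of 0.11 and a difference of −0.82, and Dusp7, a MAP kinase phosphatase gene, had a distance of 0.12 and a difference of −0.91. Chl1, a cell adhesion gene, had a distance of 0.14 and a difference of −0.87, and its Tc17 mean of 5.06 lay below every array median. Of the 3 genes nearest to Il4ra, Nfx1, a transcriptional repressor gene, and Rps6kc1, a kinase-like gene, had distances of 0.042 and 0.069 and differences of 0.48 and 0.44, and the other had a provisional name. With 6 arrays from 4 samples, many genes have like profiles.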

How the data were processed

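Affymetrix arrays of biotin-labelled total RNA gave 6 arrays from 4 biological samples. The values are log2 intensities, deposited by the authors after processing for which the submitters' processing notes name Partek and RMA, without versions. RMA corrects background, normalizes by quantiles and summarizes probes per probe set. The array build was not given in the sources used here.

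The technical array was averaged with sample 2, leaving 2 samples per group. All 41345 probe sets were fitted with limma 3.58.1 in R 4.3.3 (lmFit, eBayes, Tc17 minus Tc1), with Benjamini-Hochberg adjustment over all of them and calls at an adjusted p under 0.05. Residual degrees of freedom were 2 and prior ones 2.63. No filter was applied. Where a gene had several probe sets of 1 symbol, the brightest on average stood for it. The number of biological samples, 2 per group, limits the precision.

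The members and gene lists were chosen with earlier results of these data known. Named were all measured members, the called genes of each list, its 2 largest uncalled differences, neighbours of adjacent members and the 3 nearest profiles. Alternatives covered the technical array, the replicate number as a block, normalization, filtering, moderation, probe set averaging and leaving out samples. Promoters are RefSeq's. Tables and figures used Python 3.11.15, pandas 2.3.3 and matplotlib 3.10.9.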

Additional observations from a re-analysis of the deposited data

How the results depend on the processing

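Calls depended on the reading of the technical array and on each sample. The test called 351 genes, 1 receptor chain and 8 of 67 pathway genes. The 67 join the lists of cytokines, partner chains, signalling genes, STAT5 response genes, transcription factors and receptors without the gamma chain. The 18 receptors without the gamma chain lie outside the family and held 3 of the 8 calls. Without the technical arrays it called 307, 1 and 7. With the 6 arrays as separate samples it called 1830, 2 and 30, with the sample as a random block 1661, 2 and 30, and with the technical array averaged into sample 1 it called 1240, 2 and 29. With the replicate number as a block the counts were 1141, 1 and 25, and the Il4ra adjusted p was 0.0506. The labels do not say that a number marks a shared animal or day, so the samples share only a number, and the deviations of same-numbered samples had a correlation of 0.31 across probe sets. Without moderation limma called 0, 0 and 0, with 2658, 2 and 25 at an unadjusted p under 0.05. Keeping probe sets above the median level gave 546 genes and 14 pathway genes, and averaging all probe sets per gene gave 874 and 17, both with fewer features tested. Leaving out each sample gave 42 to 107 genes, 0 receptor chains (2 at an unadjusted p under 0.05 in each fit) and 3 to 8 pathway genes. Il2ra, at −0.0055, turned to 0.012 without the technical arrays, 3e-04 with separate arrays, 0.012 with the technical array in sample 1, 0.0079 with quantile normalization, and 0.0038 and 0.0026 without Tc17 replicate 1 and Tc1 replicate 1, within a range of −0.015 to 0.0038 over the 4 fits without a sample. Il21r, at 0.033, turned to −0.0026, −0.016 and −0.093 with separate arrays, the technical array in sample 1, and without Tc17 replicate 1 (range −0.093 to 0.16 without a sample). Both genes have intervals that span 0. Il2rb, Il4ra, Il7r, Il9r and Il15ra kept their direction under all 16 alternatives, within −0.13 to −0.053, 0.40 to 0.56, 0.036 to 0.33, −0.14 to −0.023 and −0.89 to −0.79 in that order, so that Il2rb, Il7r and Il9r moved by over 1.5 times. Depth is not known for arrays; Il9r and 4 cytokine genes are too dim for a difference to be read as one of transcripts.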

Other observations

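Samples 1 and 2 differed in the same direction in both groups for several genes of the pathway. Bcl6 measured 7.54 in Tc17 sample 1 against 8.68 and 8.90 on the arrays of Tc17 sample 2, and 6.51 in Tc1 sample 1 against 8.06 and 8.06 on the arrays of Tc1 sample 2. Myc, a growth regulator gene, ran the other way, at 11.88 in Tc17 sample 1 against 11.38 and 11.43, and 11.92 in Tc1 sample 1 against 11.24 and 11.14. Among the receptor chains, sample 1 was below sample 2 for Il7r by 0.30 in Tc17 and 0.19 in Tc1, and above it for Il4ra by 0.13 in Tc17 and 0.17 in Tc1. These genes were picked after their values were seen, and no explanation was tested.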
